A study of Mus musculus with 2 samples.

Results

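B-lineage cells, meaning B cells and the antibody-secreting plasma cells they give rise to, were few among the immune cells of the GL261 mouse glioma. They were picked by their transcripts. A cell barcode was a member when it had at least 2 unique molecular identifiers (UMIs, counted RNA molecules) of Cd79a, none of Siglech, under 0.5% of its UMIs on C1qa and C1qb together, and fewer than 2 of Cd3d, Cd3e and Cd3g together, after barcodes with under 300 genes, under 500 UMIs or 10% or more mitochondrial UMIs had been dropped. This gave 117 members of 15234 kept barcodes. The values that chose them are described without a test.

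GL261 is an established mouse glioma line, grown here inside the skulls of C57BL/6 mice, and CD45+ cells, which are cells of blood origin and microglia, were taken from the tumours for droplet sequencing of the 3' ends of transcripts. The PBS library (63 members of 8155 kept barcodes) came from mice given PBS by gavage, although its treatment label reads untreated. The ibudilast library (54 of 7079) came from mice given ibudilast, an inhibitor of phosphodiesterases and of the cytokine MIF, at 20 mg/kg by the same route, 5 times a week for 2 weeks. Each treatment had 1 library, and the number of mice pooled into it, their age and their sex are not given in the sources used here. All intervals are 95% ones for counting error, and the spread between mice or between barcodes is not in them, so that no difference between the libraries has a replicate check and none was tested.

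Depth differed between the libraries as a whole and little among the members. The PBS library held 119113794 UMIs in 8968 barcodes and the ibudilast library 82196922 in 8483, and 8.93% and 15.6% of barcodes were over the mitochondrial limit. The median kept barcode had 12234 and 8267 UMIs, while the median member had 5318 (range 2361 to 30271) and 5868.5 (range 2274 to 31600). The libraries shared 19 barcode strings, none of them a member.

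A B cell recognises antigen through a surface immunoglobulin whose signal passes through the partners CD79A and CD79B. Naive follicular B cells carry IgM and IgD, and after activation a B cell may switch to IgG, IgA or IgE and become a plasma cell, which loses surface B cell proteins such as CD20 (gene Ms4a1) and secretes antibody. The J chain, from Jchain, joins IgM and IgA into polymers. In the brain B cells are scarce outside inflammation, infection or tumour.

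Cd79a lies on the forward strand at chr7:24897381-24902197 of mm10 (GRCm38) and Vpreb3, which led the genes found with it, at chr10:75943057-75949657, also forward. Cd79b (chr11:106311341-106314762), Ms4a1 (chr19:11249675-11266241) and Jchain (chr5:88519809-88527891) lie on the reverse strand. The stretches from 250 bases before to 50 bases after the RefSeq start sites of Cd79a and Vpreb3 (GRCm38.p6, chr7:24897247-24897546 and chr10:75948050-75948349, both forward, with start sites inside the gene models given above) are shown because these were the selecting gene and the gene with the highest ratio of members to other barcodes. 6 of 12 marker genes of the lineage had an entry in the RefSeq promoter table. Capitals mark the octamer ATTTGCAT, the site read by the OCT factors with which Pou2af1 acts, and AGGAAGT, a site of the ETS factors such as PU.1 and Spi-B, or its reverse complement ACTTCCT.
Cd79a: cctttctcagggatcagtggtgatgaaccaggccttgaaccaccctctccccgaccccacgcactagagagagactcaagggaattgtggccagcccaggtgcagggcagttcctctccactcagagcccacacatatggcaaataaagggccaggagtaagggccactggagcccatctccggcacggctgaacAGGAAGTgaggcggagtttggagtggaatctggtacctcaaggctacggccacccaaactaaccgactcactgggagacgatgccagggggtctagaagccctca
Vpreb3: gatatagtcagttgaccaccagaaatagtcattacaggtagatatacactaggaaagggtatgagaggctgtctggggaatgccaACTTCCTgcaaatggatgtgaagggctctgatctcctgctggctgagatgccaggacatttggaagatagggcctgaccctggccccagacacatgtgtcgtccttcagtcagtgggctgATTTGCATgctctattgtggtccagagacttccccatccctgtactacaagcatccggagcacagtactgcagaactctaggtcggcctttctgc
AGGAAGT began 55 bases before the Cd79a start site. In Vpreb3 the octamer began 45 bases and ACTTCCT 165 bases before it. On either strand the octamer was found in 1.74% (570) of the 32851 promoters of the table and AGGAAGT in 9.35% (3072), so a match describes these letters and is no sign of binding.

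Members carried the B-lineage programme that their label names. Of 8 B cell genes, none of which admits a barcode by the rule although Ms4a1 splits the members (Cd79b, Ms4a1, Pax5, Ebf1, Fcmr, Ly6d, Ighm and Ighd), 5 or more had a UMI in 61 of 63 PBS and 48 of 54 ibudilast members, and 1 PBS and 2 ibudilast members had fewer than 3. Ms4a1 had a UMI in 61 of 63 (96.8%, interval 89.0% to 99.6%) and 51 of 54 (94.4%, interval 84.6% to 98.8%), with medians of 4 and 5 UMIs. Ptprc, the gene of CD45 itself, had a UMI in 58 and 50 members.

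In members with fewer than 10 Jchain UMIs (63 and 50 barcodes), levels were read as CPM, the UMIs of a gene scaled to a common total, a scale that compares a gene between sets of barcodes and not with other genes. Cd79a, used by the rule, was at 2149 CPM in PBS and 2221 CPM in ibudilast members, Cd79b at 1139.8 and 1094 CPM, and Ms4a1 at 781 and 876 CPM. Pax5, the factor that holds B cell identity, was at 153 and 141 CPM. Each of these pairs lay close together. T cell barcodes (742 and 1090, with 2 or more Cd3 UMIs and no Cd79a) had Ms4a1 at 0.588 and 0.303 CPM. Barcodes high in C1q, a macrophage product (4962 and 2794, with fewer than 2 Cd79a UMIs), had it at 0.401 and 0.288 CPM.

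**Figure D1:**
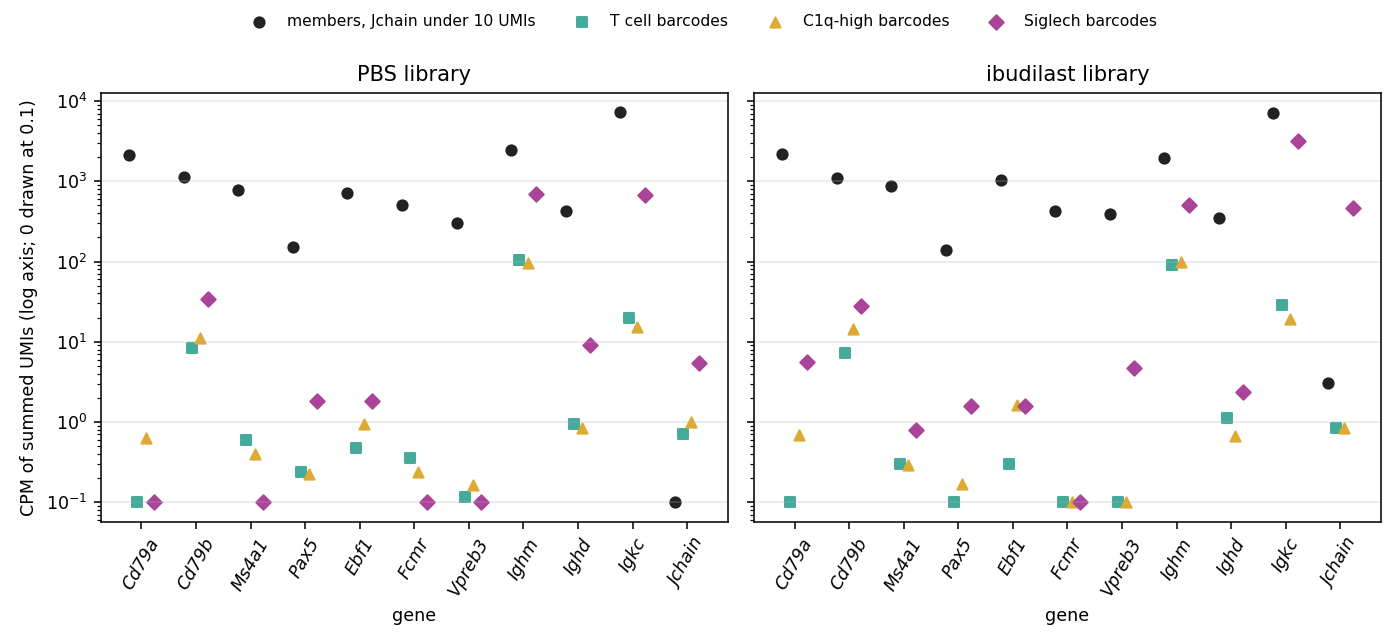
CPM of summed UMIs (log axis) of B-lineage genes in members with Jchain under 10 and in 3 other sets of barcodes, in the PBS library (left) and the ibudilast library (right), with values of 0 drawn at 0.1. For the genes drawn other than Cd79a and Jchain, members lie above the other sets, while Ighm and Igkc were also seen in those sets. Cd79a chose the members and was limited in the T cell and C1q-high sets, so its gap was set by selection. Jchain was held under 10 UMIs in the members drawn.

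Immunoglobulin UMIs were also widespread outside the members, and Cd79a UMIs were not. Chosen with no condition on Cd79a, barcodes with 2 or more Cd3 UMIs and C1q under its limit (752 and 1110) had a Cd79a UMI in 1.33% and 1.80%, and barcodes at or over the C1q limit (5052 and 2841) in 2.85% and 2.68%. In the T cell barcodes Ighm, the IgM heavy chain, had a UMI in 40.0% and 38.9% and Igkc, the kappa light chain, in 12.1% and 16.8%, at median depths of 8546.5 and 8993 UMIs. Barcodes with 2 or more UMIs of Siglech, a gene of plasmacytoid dendritic cells (93 and 97), had an Ighm UMI in 93.5% and 93.8% and an Igkc UMI in 62.4% and 59.8%. Single UMIs of these 2 genes therefore said little about a barcode. Igha, the IgA heavy chain, had a UMI in 2.29% of PBS and 6.88% of ibudilast T cell barcodes (intervals 1.34% to 3.64% and 5.45% to 8.55%). In C1q-high barcodes (median depths 15589.5 and 12397 UMIs) it was seen in 0.625% and 7.41% (intervals 0.425% to 0.886% and 6.46% to 8.44%). Barcodes of 1 library are not replicates, so these intervals do not test a difference, and the source of these UMIs was not tested.

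The 15 genes with the highest ratio of members to all other kept barcodes, by the lower of both libraries, included Vpreb3 (226), Cd79a (162, used by the rule), Ms4a1 (156), Pou2af1 (136), Ebf1 (132), Fcmr (127), Fcer2a (113), Pax5 (112) and Cr2 (96.6). Bank1 (94.3), Tnfrsf13c (67.0), Bend5 (62.6), Cd79b (59.0) and Blk (55.7) had the lowest ratios among them. Many are known for B cells: Pou2af1 and Ebf1 are B cell transcription regulators, Fcmr binds IgM, Fcer2a is the low-affinity IgE receptor CD23, Cr2 is complement receptor CD21, and Tnfrsf13c is the receptor for the survival factor BAFF. These ratios are lower than the contrast with cells that lack B cell RNA, since the other barcodes included 96 PBS and 64 ibudilast barcodes with 2 or more Cd79a UMIs that a limit of the rule had left out.

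Those left-out barcodes were deep and carried as many of the B cell genes as the members. They had median depths of 20910.5 (PBS) and 20191.5 (ibudilast) UMIs, and a median of 7 of the 8 B cell genes in both, as the members had. Whether they hold RNA of more than 1 cell was not tested. The C1q limit alone left out 63 and 32 of them, the Cd3 limit alone 6 and 12, Siglech alone 0 and 2, and more than 1 limit 27 and 18. Inside the limits, just below the Cd79a threshold, 17 PBS and 9 ibudilast barcodes had 1 Cd79a UMI, of which 1 and 0 had Ms4a1. Just at it, 1 PBS and 2 ibudilast members had 2 Cd79a UMIs, of which 0 and 1 had Ms4a1. The threshold fell in a gap, as the median member had 13 (PBS) and 13.5 (ibudilast) Cd79a UMIs (range 2 to 35 and 2 to 33).

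RNA of myeloid cells was present in some members although the C1q limit had been passed. Lyz2, the lysozyme of myeloid cells, had 15 or more UMIs in 7 of 63 PBS and 5 of 50 ibudilast members with Jchain under 10 (11.1%, interval 4.59% to 21.6%, and 10%, interval 3.33% to 21.8%), called barcodes with myeloid RNA, by a gene and a threshold chosen after the data were seen. These barcodes were deep (medians of 11388 and 11192 UMIs against 5157 and 5457 in the rest) and held 25.1% and 18.3% of the UMIs. Their median Cd79a was 7 UMIs in PBS and 18 in ibudilast members, against 14 in the rest of both. Much myeloid RNA remained in the rest. The 6 macrophage markers were at 5752 CPM in PBS and 5346 CPM in ibudilast members there. Over all members with Jchain under 10 they were at 8360.1 and 6908 CPM. C1qa still had a UMI in 89.3% and 68.9% of the rest, and Spp1, a product of tumour macrophages, had 24 and 55 UMIs. Later values are given with the barcodes with myeloid RNA and, where it matters, without them, which does not free a value of myeloid RNA.

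**Figure D2:**
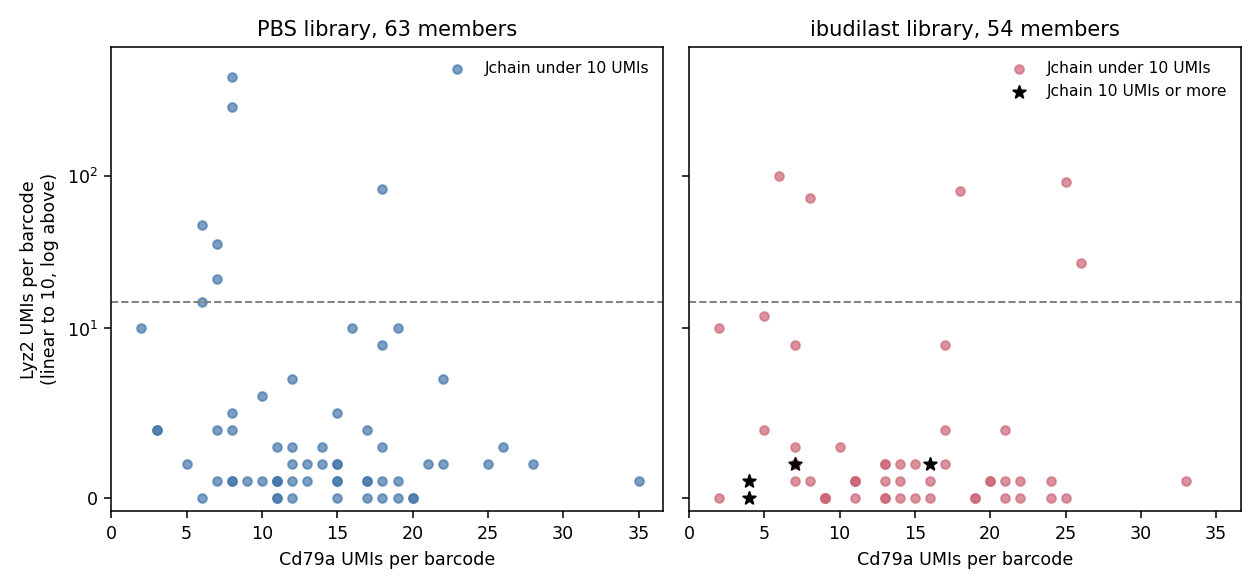
Lyz2 UMIs against Cd79a UMIs for each member of the PBS library (63 barcodes) and the ibudilast library (54 barcodes), with the axis linear to 10 and logarithmic above. Points at or above the dashed line at 15 are the 7 PBS and 5 ibudilast members called barcodes with myeloid RNA, and black stars are the 4 members with at least 10 Jchain UMIs.

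As a share of the kept CD45+ barcodes, B-lineage members were close between the libraries. They made up 0.773% of the PBS library (interval 0.594% to 0.987%) and 0.763% of the ibudilast library (interval 0.574% to 0.994%), a ratio of 0.987 (interval 0.674 to 1.44). The share depends on what else was sorted, and barcodes at or over the C1q limit were 5052 of 8155 in the PBS and 2841 of 7079 in the other library. Among kept barcodes with under 0.5% of UMIs on C1qa and C1qb, members were 2.03% of 3103 and 1.27% of 4238 barcodes, a ratio of 0.628 (interval 0.428 to 0.917). With no C1q, Cd3 or Siglech limit, 159 (1.95%) and 118 (1.67%) barcodes had 2 or more Cd79a UMIs, a ratio of 0.855 (interval 0.668 to 1.09).

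IgM dominated the immunoglobulin classes of members with Jchain under 10. A class was called when 1 heavy chain constant gene had at least 2 UMIs and most of the heavy chain UMIs. Ighm led in 59 of 63 PBS members (93.7%, interval 84.5% to 98.2%) and 39 of 50 ibudilast members (78.0%, interval 64.0% to 88.5%), and Ighd in 1 of each. A switched class led in 2 PBS members, 1 with Ighg3 and 1 with Ighg2b, and in 3 ibudilast members, all with Ighg2b. No class could be called in 1 PBS and 7 ibudilast members. All 5 switched barcodes also had Ms4a1, with 3 to 11 UMIs.

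Summed over these members, Ighm was at 2490.5 CPM in PBS and 1936 CPM in ibudilast members (ratio 0.777, interval 0.702 to 0.860), and 0.831 without barcodes with myeloid RNA. 1 PBS barcode held 135 of the 992 Ighm UMIs. Ighd was at 432 and 346 CPM (ratio 0.802, interval 0.627 to 1.02), and Igkc at 7240.4 and 7088 CPM (ratio 0.979, interval 0.926 to 1.03). Kappa led in 56 of 63 and 43 of 50 members and lambda in 6 and 6. Since 58 and 45 of these members had at least 2 UMIs of both kappa and lambda, the light chains were not cleanly exclusive at the level of barcodes.

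The lambda genes differed in direction. Iglc1, the constant gene of lambda 1, had 183 UMIs in PBS and 322 in ibudilast members (ratio 2.15, interval 1.79 to 2.59), and 1.35 with no C1q, Cd3 or Siglech limit, while Iglc2 and Iglc3 had ratios of 0.839 and 0.746. A single ibudilast barcode carried 84 of the 322 Iglc1 UMIs, and the same barcode carried 28 of the 62 Ighg2b UMIs of that library. Ighg2b had 23 UMIs, in 7.94% of PBS members, and 62, in 12% of ibudilast members (ratio 3.29, interval 2.01 to 5.56). So few barcodes set these totals that the intervals, which treat each UMI as separate, are too narrow.

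Barcodes with at least 10 Jchain UMIs were a handful, and the fourth of the 4 members, described below, had few UMIs of secretory genes. Jchain reached 10 UMIs in none of the 63 PBS members, which allows a share of up to 4.76% by the limit of 3 counts and up to 5.69% by the exact interval, and in 4 of 54 ibudilast members (7.41%, interval 2.06% to 17.9%). The remaining members held 0 and 1 Jchain UMIs in all, so the split was sharp. The absence from the PBS members rested on the limits of the rule. Before any limit, 8 barcodes had at least 10 Jchain UMIs, 2 of them PBS and 6 ibudilast. The first PBS barcode had 1619 Jchain, 10094 Igkc and 5261 Ighm UMIs but also 41 Cd3 UMIs, 5 Siglech UMIs and 0.813% of its 58445 UMIs on C1qa and C1qb. The second, with 53 Jchain, 888 Igkc and 673 Ighm UMIs among 3288, was over the mitochondrial limit at 10.5%. In the ibudilast library, a barcode of 48127 UMIs with 594 Jchain and 19 Siglech UMIs, and another of 982 UMIs with 10 Jchain and 329 Igha UMIs at 19.8% mitochondrial UMIs, were left out. Leaving out the barcodes with the highest doublet scores removed 2 of the 4 members and gave a share of 3.85%.

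The heavy chain classes were read in all 8 barcodes. Both PBS barcodes, which are not members, carried Ighm with no UMI of an IgG or IgA gene. The 4 ibudilast members carried no Ighm or Ighd UMI at all: 3 were led by Igha and 1 by Ighg2c. The 2 ibudilast barcodes that were left out had 5 and 1 Ighm UMIs beside 32 and 329 of Igha. So few Ighm UMIs say little, as 38.9% of the T cell barcodes of that library also had an Ighm UMI. With 2 and 6 barcodes, and an unstated number of mice, no share was compared. Among members all 4 used kappa.

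The ibudilast member with most Jchain (1660 UMIs) spent 68.7% of its 31600 UMIs on immunoglobulin genes and Jchain, with 13786 Igkc and 6123 Igha UMIs. All 51 of its heavy chain variable UMIs were from Ighv9-3 and 41 of 46 light chain variable UMIs from Igkv4-80. It had 3 UMIs of Sdc1, the plasma cell surface protein CD138, 27 of Xbp1, the factor that expands the secretory apparatus, and 7 of Tnfrsf17, the survival receptor BCMA, and none of Ms4a1.

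The second Igha barcode had 739 Jchain, 6657 Igkc and 1252 Igha UMIs, and 29.8% of its 29621 UMIs on immunoglobulin genes and Jchain. Its 63 light chain variable UMIs were all from Igkv5-43, and its 2 heavy chain ones from Ighv1-7. Xbp1 (62 UMIs), Irf4, a driver of plasma cell fate (24), Derl3, of the pathway that clears misfolded proteins (18), and Tnfrsf17 (7) were found together. Of the 4 members it alone had Ccr10, a chemokine receptor of IgA-secreting cells (10 UMIs), and it had no Ms4a1.

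The Ighg2c barcode had 634 Jchain, 10285 Igkc and 3399 Ighg2c UMIs (59.8% of 24270 UMIs), with 32 of 32 heavy chain variable UMIs from Ighv1-19 and 21 of 33 light chain ones from Igkv4-59. It still had 3 Ms4a1, 16 Cd79a and 28 Vpreb3 UMIs beside 24 of Xbp1 and 2 of Sdc1. The fourth member was unlike the others. It had 19 Jchain, 262 Igkc and 178 Igha UMIs (4.70% of 10722 UMIs), no variable gene UMI, 1 Xbp1 UMI and no Sdc1, together with 30 UMIs of the MHC class II gene H2-Aa and 3 of Ms4a1. Of the 8 UMIs of Il10, a cytokine that restrains inflammation, counted over the 54 ibudilast members, it held 7. No variable gene was shared between the 3 members in which one was called.

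**Figure D3:**
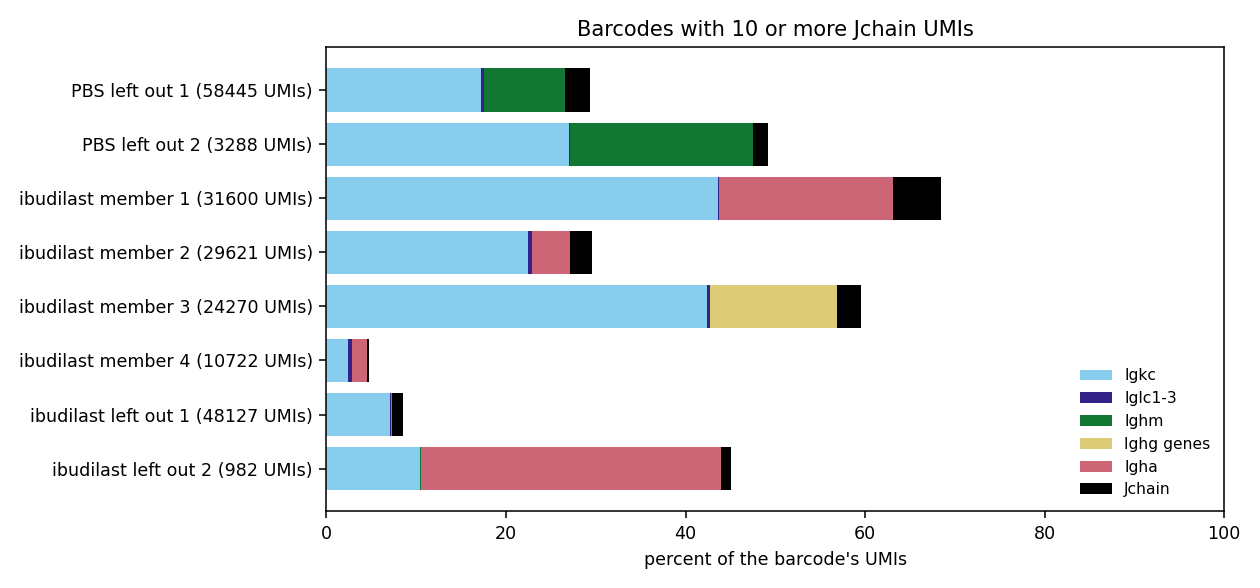
Percent of each barcode's UMIs on immunoglobulin constant genes and Jchain, for all 8 barcodes with at least 10 Jchain UMIs: 4 ibudilast members and the 2 PBS and 2 ibudilast barcodes left out by a limit. Both PBS barcodes carry Ighm (green), and none of the 4 members does.

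Secretory genes stood out when the 4 Jchain-high members were set against all 113 others, a description of barcodes chosen by Jchain. After Jchain itself, the 14 leading genes were Slpi, Xbp1, Lman1, Rexo2, Hsp90b1, Fkbp2, H13, Txndc5, Spcs1, Ssr4, Sec11c, Edem1, Ly6c2 and Ostc. Xbp1 was at 1185 against 56.6 CPM (ratio 20.9, interval 14.5 to 30.7) and had a UMI in all 4. Hsp90b1, a chaperone of the endoplasmic reticulum, was at 3835 against 315 CPM (ratio 12.2), with 283 of its 369 UMIs in the second Igha barcode. Slpi, a secreted protease inhibitor (ratio 211), had 177 of 280 UMIs in the Ighg2c barcode and none in the second Igha barcode. Cd79b was lower, at 374 against 1119 CPM (ratio 0.334).

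Members with Jchain under 10 had the genes of mature B cells, and many also had genes of activation. Without the barcodes with myeloid RNA, Ighm and Ighd occurred together in 44 of 56 PBS (78.6%, interval 65.6% to 88.4%) and 31 of 45 ibudilast members (68.9%, interval 53.4% to 81.8%). Fcer2a or Cr2 was seen in 32 (57.1%) and 25 (55.6%), and a UMI of the follicle and lymph node homing genes Ccr7 or Cxcr5 in 38 (67.9%) and 27 (60%). Vpreb3 occurred with Fcer2a or Cr2 in 21 and 22 members, and with Cd93, a marker of immature B cells, in 2 and 4. 2 or more UMIs of the cycling genes Mki67, Top2a, Birc5 and Cdk1 were counted in 3 and 1 members. Cd83 and Cd69, which mark activated lymphocytes, occurred together in 35 (62.5%, interval 48.5% to 75.1%) and 21 (46.7%, interval 31.7% to 62.1%).

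Genes of other B cell stages were in part missing and in part present. In all members, Rag1 and Rag2, which cut antigen receptor genes, Dntt, which adds bases to their joints, and the surrogate light chain genes Vpreb1 and Igll1 had no UMI in either library. The 3-count limit for these genes was 7.53 and 7.10 CPM. Bcl6, the factor of germinal centre B cells, had 4 and 3 UMIs. Cd5, a marker of B1 cells, had 0 and 1. Other genes listed for these stages were present in members with Jchain under 10. Among precursor genes Cd24a had 88 and 79 UMIs, and among germinal centre genes Cd38 had 75 and 76. Among genes of marginal zone and B1 cells Plac8 had 553 and 435 UMIs and Cd9 46 and 33. Vpreb3, also listed for precursors, had a UMI in 61.9% and 70.4% of all members.

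The question of the treatment was put to the summed UMIs of members with Jchain under 10, 398319 from PBS and 326451 from ibudilast members. A gene was counted as above when its CPM was over 25% higher in ibudilast than in PBS members (ratios are ibudilast to PBS throughout) and as below when its ratio was under 0.8. These counts were read beside the same count over all genes with at least 20 UMIs: of 4182 genes, 22.4% (935) were above and 24.8% (1038) below, with a median log2 ratio near 0 (-0.002). Without the barcodes with myeloid RNA 3353 genes had 20 UMIs, and 24.4% were above and 25.2% below. A share of a list near these values says nothing particular of it. Ratios were also read in all barcodes with 2 or more Cd79a and under 10 Jchain UMIs with no C1q, Cd3 or Siglech limit, called the unlimited set. They are given for some of the genes that turned or moved by over 1.5 times. List counts in the unlimited set stand without the share of all genes in that set. Over all settings run, that share, above and below together, lay between 37.1% and 54.5%.

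**Figure D4:**
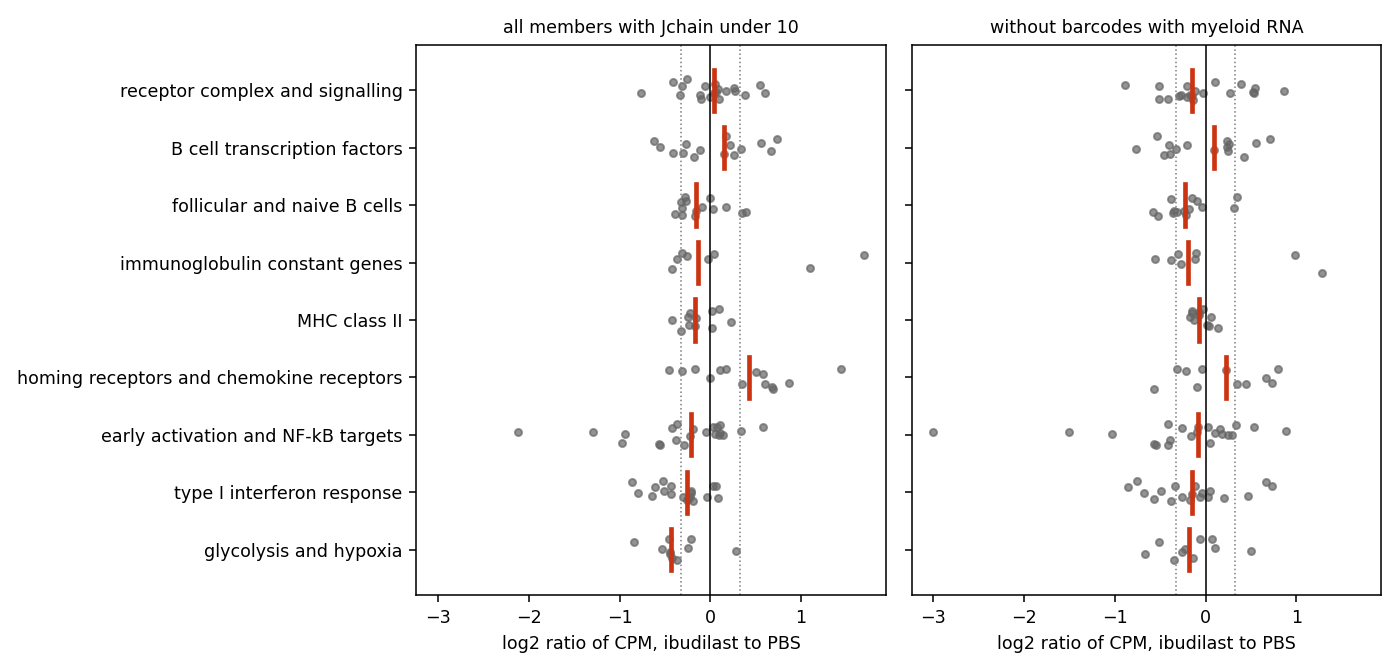
Log2 ratio of CPM, ibudilast to PBS, for each gene with at least 20 UMIs on 9 lists (grey points) with the list's median (red bar), in all members with Jchain under 10 (left) and without barcodes with myeloid RNA (right), with dotted lines at 20% lower and 25% higher. The receptor complex lies around 0 in both panels, and the interferon list has a median of -0.25 on the left and -0.15 on the right.

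The antigen receptor complex and its signalling genes were level between the libraries. Of 20 genes, 3 (15%) were above and 4 (20%) below, beside 22.4% and 24.8% of all genes, and the median log2 ratio was 0.04. Without barcodes with myeloid RNA 5 (25%) were above and 4 (20%) below, beside 24.4% and 25.2% of all genes (median -0.15). Cd79b had a ratio of 0.959 (interval 0.833 to 1.10) and Cd37, a tetraspanin of B cells, of 0.999 (interval 0.859 to 1.16). 2 partners of the same pathway lay on opposite sides. Syk, the kinase that binds CD79A and CD79B, had 67 and 80 UMIs (168 and 245 CPM, ratio 1.46, interval 1.04 to 2.05), and 1.82 (interval 1.23 to 2.73) without barcodes with myeloid RNA. Blnk, the adaptor that SYK phosphorylates, had 75 and 36 UMIs (188 and 110.3 CPM, ratio 0.586, interval 0.382 to 0.883), and 0.534 without them.

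B cell transcription factors were mixed, with 4 of 15 (26.7%) above and 3 (20%) below, beside 22.4% and 24.8% of all genes (median 0.15). Without barcodes with myeloid RNA 3 (20%) were above and 6 (40%) below, beside 24.4% and 25.2% of all genes (median 0.09). Ebf1, the factor that opens B cell genes, was at 705 and 1038 CPM (ratio 1.47, interval 1.253 to 1.73), with 281 and 339 UMIs spread over 96.8% and 92.0% of members, and 1.34 (interval 1.12 to 1.59) without those barcodes. Spib, an ETS factor, had 33 and 45 UMIs (ratio 1.66, interval 1.04 to 2.69). Pax5 had a ratio of 0.920 (interval 0.614 to 1.37), and 0.797 without barcodes with myeloid RNA. Mef2c, which acts in the response to antigen, had a ratio of 0.812 (interval 0.653 to 1.01).

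Genes of follicular and naive B cells had a median log2 ratio of -0.16. Of 14 genes 2 (14.3%) were above and 3 (21.4%) below, beside 22.4% and 24.8% of all genes. Without barcodes with myeloid RNA 1 (7.14%) was above and 6 (42.9%) were below, beside 24.4% and 25.2% of all genes (median -0.23). In the unlimited set the median turned to 0.03 and the ratio of Ltb to 1.005. Fcer2a had 52 and 35 UMIs (ratio 0.821, interval 0.519 to 1.28) and Fcmr 203 and 138 (ratio 0.829, interval 0.663 to 1.04). Klf2, the factor of quiescence and recirculation, was abundant in both libraries (2922 and 2748 CPM, ratio 0.940, interval 0.861 to 1.03). Ltb, lymphotoxin beta, was at 982 and 781 CPM (ratio 0.796, interval 0.677 to 0.934). Vpreb3, whose protein joins the maturing receptor, had 121 and 129 UMIs (ratio 1.30, interval 1.01 to 1.68), a ratio that was 0.986 with a mitochondrial limit of 5% and at least 1000 UMIs.

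MHC class II genes, which present antigen to CD4 T cells, held no larger share of low ratios than all genes. Of 11 genes none was above and 2 (18.2%) were below, beside 24.8% of all genes (median -0.17), and without those barcodes none was above or below (median -0.07). Cd74, the chaperone of class II and the receptor of MIF, was at 12395 and 10562 CPM (ratio 0.852, interval 0.816 to 0.890), and 0.888 (interval 0.846 to 0.931) without them. H2-Aa had ratios of 0.887 and 0.952, and H2-Eb1 of 0.854 and 1.01. 1 PBS barcode held 550 of the 4937 Cd74 UMIs. Ciita, the activator of these genes, had 89 and 58 UMIs (ratio 0.795, interval 0.561 to 1.12), and 0.900 without them.

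Early activation and NF-kB target genes held some of the lowest ratios. Of 22 genes, 2 were above and 9 (40.9%) below, beside 24.8% of all genes, with a median log2 ratio of -0.21, while 3 were above and 8 (36.4%) below without barcodes with myeloid RNA (median -0.09). In the unlimited set 3 of 23 were above and 4 below, counts that stand without the share of all genes in that set. The median there turned to 0.08, beside 0.04 for all genes. Cd83, a surface protein of activated B cells, had 146 UMIs in 77.8% of PBS and 62 UMIs in 60% of ibudilast members (367 and 190 CPM, ratio 0.518, interval 0.379 to 0.702). No barcode held more than 8 and 6 of the Cd83 UMIs, so the difference was spread over many. With each member thinned to 2000 UMIs, 48.2% and 29.3% had a Cd83 UMI. Cd83 gave 0.487 without barcodes with myeloid RNA, and between 0.400 and 0.574 over every alternative run.

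Myc, which drives growth after activation, had 34 UMIs in 31.7% of PBS and 6 UMIs in 10.0% of ibudilast members (ratio 0.215, interval 0.0739 to 0.519). Without barcodes with myeloid RNA it had 31 and 3 UMIs, and in the unlimited set its ratio was 0.788. Nfkbid, an NF-kB regulator needed by B cells, had 55 and 18 UMIs (ratio 0.399, interval 0.221 to 0.691), of which 23 were in 1 PBS barcode, and 0.685 in the unlimited set. Fosb was at 1341 and 913 CPM (ratio 0.681, interval 0.589 to 0.786, and 0.840 in the unlimited set). Cd69, which holds lymphocytes in tissue, was at 763 and 591 CPM (ratio 0.775, interval 0.643 to 0.931, and 1.13 in the unlimited set). Other immediate early genes, which also respond to tissue dissociation, were mixed in all members. Fos had a ratio of 1.07 (interval 0.982 to 1.17), Jun of 1.04 (interval 0.956 to 1.13) and Egr1 of 0.969 (interval 0.822 to 1.14). Junb was at 0.854 (interval 0.769 to 0.947) and Ier2 at 0.768 (interval 0.608 to 0.966). Nr4a1 (0.670, interval 0.407 to 1.08) and Egr3 (0.739, interval 0.402 to 1.33) had wide intervals. Without barcodes with myeloid RNA Fos was at 1.27 (interval 1.14 to 1.40) and Jun at 1.13.

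**Figure D5:**
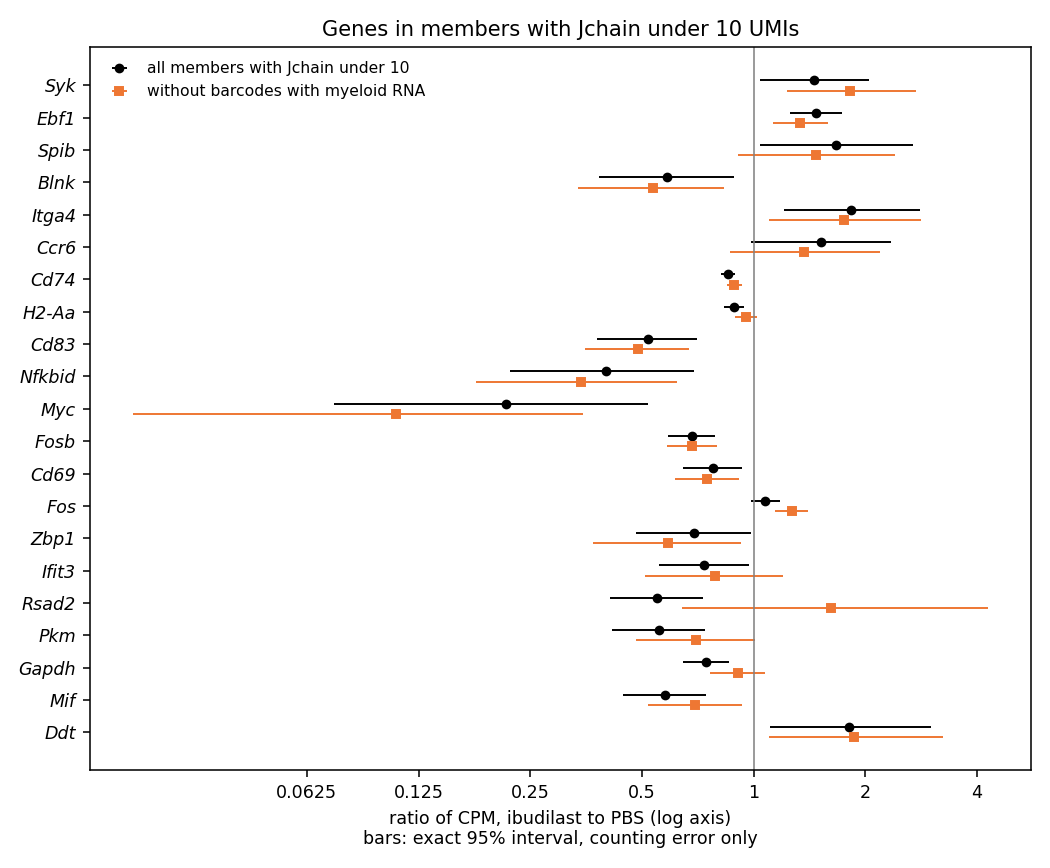
Ratio of CPM, ibudilast to PBS (log axis), with its exact 95% interval for counting error, for 21 genes in all members with Jchain under 10 (black circles) and without barcodes with myeloid RNA (orange squares). Cd83, Nfkbid, Myc, Fosb and Cd69 lie below 1 with both sets, Itga4, Ebf1, Syk and Ddt above 1, and Rsad2 changes side.

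Interferon response genes were lower on balance in all members and mixed without barcodes with myeloid RNA. Of 19 type I interferon response genes, none was above and 8 (42.1%) were below, beside 22.4% and 24.8% of all genes (median -0.25). Without those barcodes 3 were above and 7 (36.8%) below, beside 24.4% and 25.2% of all genes (median -0.15). Zbp1, a sensor of nucleic acids, had 90 and 51 UMIs (ratio 0.691, interval 0.480 to 0.986, and 0.588 without them) and Ifit3 141 and 85 (ratio 0.736, interval 0.555 to 0.970). Ifi27l2a, the most abundant of the list, had a ratio of 1.04 (interval 0.944 to 1.15), and Isg15 of 1.02 (interval 0.782 to 1.33), which was 1.66 (interval 1.17 to 2.37) without them.

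2 facts bear on this list. Rsad2, an antiviral enzyme, had 160 and 72 UMIs (ratio 0.549), but 68 and 58 of them were in 1 barcode of each library, and without barcodes with myeloid RNA the ratio was 1.62 (interval 0.640 to 4.29). In the unlimited set the list's median log2 ratio was 0.18, beside 0.04 for all genes. There 5 of 19 were above and none below, counts that stand without the share of all genes in that set. Zbp1, Ifit3 and Rsad2 had ratios of 1.03, 1.24 and 1.16 there.

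Homing and chemokine receptors had ratios mostly above 1: 8 of 14 (57.1%) were above, beside 22.4% of all genes, and 2 below (median 0.42). Without barcodes with myeloid RNA this was 5 of 11 (45.5%) above, beside 24.4% of all genes, and 2 below (median 0.22). Without the 1 barcode of each library richest in these genes, 6 of 13 were above and 3 below (median 0.16). In the unlimited set 2 of 14 were above and 1 below, counts that stand without the share of all genes in that set (median 0.17, beside 0.04 for all genes). Itga4, the integrin chain by which lymphocytes bind inflamed vessels, had 40 UMIs in 47.6% of PBS and 60 UMIs in 66.0% of ibudilast members (ratio 1.83, interval 1.21 to 2.80), and 1.75 without barcodes with myeloid RNA. Ccr6, a receptor for CCL20, had 41 and 51 UMIs (ratio 1.52, interval 0.986 to 2.35) and Cxcr4, which draws cells to CXCL12, 66 and 58 (ratio 1.07, interval 0.740 to 1.55). Ccr7, which leads cells to lymph nodes, had a ratio of 1.27 that rested on 1 ibudilast barcode with 53 of 96 UMIs, and 0.701 without the top barcode of each library. That barcode also held 115 UMIs of the migratory dendritic cell genes Ccr7, Fscn1 and Ccl22, beside 21 of Cd79a and 13 of Ms4a1.

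Glycolysis and hypoxia genes had ratios below 1 that moved with the barcodes with myeloid RNA. Of 10 genes 7 (70%) were below, beside 24.8% of all genes, and none above (median -0.43). Without those barcodes 3 of 10 (30%) were below, beside 25.2% of all genes, and 1 above (median -0.19). Pkm, pyruvate kinase, was at 397 and 221 CPM (ratio 0.556, interval 0.415 to 0.739), and 0.6999 (interval 0.481 to 1.01) without them and 0.851 in the unlimited set. Gapdh had ratios of 0.744 and 0.907, and Ldha, lactate dehydrogenase, of 0.730 and 0.835.

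Ibudilast's known protein targets were seen only in part. Mif, the cytokine gene, was at 485 and 279 CPM in members with Jchain under 10 (193 and 91 UMIs, ratio 0.575, interval 0.443 to 0.742). Its ratio was 0.697 without barcodes with myeloid RNA and 0.817 in the unlimited set. Ddt, whose product is a MIF homologue, had 29 and 43 UMIs (ratio 1.81, interval 1.10 to 3.005), with 17 of the 43 in 1 barcode. Of the phosphodiesterase genes, Pde4b had the most UMIs, 28 and 20 (ratio 0.872, interval 0.465 to 1.60), while Pde4a had 4 and 9, Pde3b 4 and 10, Pde4d 1 and 3 and Pde10a none.

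Among the cell cycle genes 4 had at least 20 UMIs, too few for a list. Pcna, a clamp of DNA replication, had 55 and 23 UMIs (ratio 0.510, interval 0.299 to 0.844) and Hmgb2 113 and 63 (ratio 0.680, interval 0.492 to 0.934), but both turned in the unlimited set, to 1.08 and 1.11. Il10 had 2 UMIs in PBS and 1 in ibudilast members with Jchain under 10. Cd40, which receives help from T cells, had 39 and 35 UMIs (ratio 1.10, interval 0.674 to 1.77).

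Ranked across all genes by the interval bound nearest to 1, 19 had that bound over 25% higher and 27 below 0.8. The 10 highest named were Mcpt1, Ccl5, Hspb1, Pdcd4, Ccl12, Arl5c, Zbtb7a, AC149090.1, Ssh2 and Arhgap17. For Mcpt1, a mast cell protease, 127 of 140 ibudilast UMIs were in 1 barcode that also had 21 UMIs of mast cell and basophil markers, and for the chemokine Ccl5, 89 of 143 were in the barcode rich in dendritic cell genes. Without the top barcode of each library their ratios were 1.45 and 1.67. For Ccl12, 59 of 108 ibudilast UMIs were in 1 barcode that had 72 Lyz2 UMIs, and for Hspb1, 20 of 42 were in 1 barcode. The ratio of Ccl12 was 1.32 without barcodes with myeloid RNA. Some others were spread over the members. Pdcd4, a repressor of translation, had 22 UMIs in 27.0% of PBS and 53 UMIs in 54.0% of ibudilast members (ratio 2.94, interval 1.76 to 5.08). Zbtb7a, a transcription repressor, had 17 UMIs in 20.6% and 39 in 56.0% (ratio 2.80, interval 1.55 to 5.28). Ssh2, a phosphatase that acts on cofilin, had 22 UMIs in 23.8% and 43 in 54.0% (ratio 2.38, interval 1.40 to 4.19). No barcode held more than 5 UMIs of any of these 3 genes. In the unlimited set Zbtb7a was at 1.02 and Ssh2 at 1.32, while Pdcd4 moved by less than 1.5 times. Hspb1, Arl5c and Arhgap17 fell there to 1.255, 1.32 and 1.24, and Ccl12 turned to 0.687.

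The 10 lowest were led by genes of myeloid cells: Spp1, Lgals3, C1qa, Cxcl2, Lyz2, C1qb, Cxcl10 and C1qc, with Mt1 and H1f2. C1qa and C1qb were limited by the rule itself, and 183 of the 233 PBS UMIs of Spp1 were in 1 barcode. Without barcodes with myeloid RNA the ratio of Spp1 was 2.57 and that of Cxcl2 1.12, so both turned, with 42 of the 55 ibudilast UMIs of Spp1 in 1 barcode that had 12 Lyz2 UMIs, just under the threshold of 15. Lyz2 was at 2696 and 1391 CPM (ratio 0.516), with 447 of its 1074 PBS UMIs in 1 barcode, and its ratio was 0.816 without the highest doublet scores. It was at 472 and 315 CPM without barcodes with myeloid RNA. Those barcodes were set apart by Lyz2 itself, so these values cannot tell whether its ratio holds. Mt1, a metal-binding protein, had 98 UMIs in PBS and 24 in ibudilast members (ratio 0.299, interval 0.183 to 0.471), and H1f2, a linker histone, 81 and 25 (ratio 0.377, interval 0.230 to 0.596). Without barcodes with myeloid RNA the ratios of Mt1 and H1f2 were 0.325 and 0.420, and in the unlimited set 0.847 and 0.875. For Mt1, 38 of the 98 PBS UMIs were in 1 barcode, and its ratio was 0.464 without the top barcode of each library. Of the 20 named genes, 9 were also named when the ranking was made without the barcodes with myeloid RNA.

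Markers of other cells were also found in members with Jchain under 10, some of them at levels that differed between the libraries. All 6 macrophage markers had a UMI in both libraries, at 8360.1 CPM in PBS (459 to 60425 per barcode) and 6908 CPM in ibudilast members (0 to 29753). Their ratios ran from 0.462 for C1qa, which the rule limited, to 1.37 for Ms4a7. Apoe, with 2151 and 1715 UMIs, was at 0.973. The 4 monocyte markers were at 1933 CPM in PBS (0 to 12279.9 per barcode) and 2245 CPM in ibudilast members (0 to 16559.9). Of 6 T cell markers 5 had a UMI, with 50 and 51 UMIs in all (126 and 156 CPM, 0 to 669 and 0 to 765 per barcode) and Cd3e at 0 in both. Ccr9 and, by the rule, Siglech were at 0 in both libraries, as was Sall1 of microglia. Haemoglobin genes had 1 UMI in the PBS and 34 in the ibudilast members, and oligodendrocyte genes 20 and 44. The other kept barcodes differed in the same direction for each of these sets. There macrophage markers were at 28384 and 20652 CPM, monocyte markers at 1507 and 2684 and T cell markers at 560 and 1006. Haemoglobin genes were at 170 and 449 CPM, and oligodendrocyte genes at 140 and 506. The part of RNA of other cells in the ratios above, beyond the values given with and without the barcodes with myeloid RNA, was not tested.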

How the data were processed

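Raw UMI counts, 1 value per gene and barcode, were deposited. Cell Ranger 6.1.1 is named as their source, per the file headers, with mm10 as build, per the submitters' processing notes. Both libraries list 31253 genes. Gene positions are from GENCODE M21 on GRCm38. With 1 library per group, counts were summed over barcodes, and no test was made. Shares have exact Clopper-Pearson intervals, CPM exact Poisson and ratios exact conditional binomial intervals at 95%. List medians used genes with at least 20 UMIs and 0.5 UMIs added to each sum. Members, lists and alternatives were chosen with earlier results of these data known. Members of 19 lists could be named. Outside them, ranked genes needed 50 UMIs over both libraries and, in members with Jchain under 10, a UMI in 10% of barcodes of the higher library. The 10 highest and 10 lowest with an interval bound over 25% higher or 20% lower were named, as were 15 leading genes of members (in 20% of them) and of Jchain-high barcodes. Mitochondrial, ribosomal, haemoglobin, receptor variable and constant, sex-linked and unnamed genes were left out of rankings. Doublets were not removed in the values above. As an alternative the 6% of barcodes with the highest Scrublet scores (scanpy 1.11.5) were left out, 489 and 425 barcodes with 1 and 2 members. Some genes are not reported here. Code was checked on simulated counts.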

Additional observations from a re-analysis of the deposited data

How the results depend on the processing

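No paired analysis was possible because each group has 1 library. The ratio of the B-lineage shares stayed between 0.845 and 1.18 in 7 alternatives, within its counting interval, and was 0.628 with the denominator limited to barcodes under 0.5% C1q. The Jchain-high share of ibudilast members lay between 3.77% and 10.0%. The share of genes over 25% higher or 20% lower stayed between 37.1% and 54.5%. With Jchain-high members counted in, the median log2 ratio was 0.53 for immunoglobulin constant genes and -0.49 for MHC class II genes, as 4 barcodes then held 96213 of 422664 ibudilast UMIs. Leaving out members with myeloid RNA, leaving out top barcodes and lifting the limits for gene ratios were chosen after seeing the data.

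Of 550 alternative values of gene ratios that were over 25% higher or 20% lower, 18 turned, as did 1 of 39 for list medians past the same bounds. Ccr7 gave 0.783 with each barcode weighted alike, 0.983 over all members, 0.701 without the top barcodes and 0.993 with no C1q, Cd3 and Siglech limits. Cxcl10 gave 1.57 in Ms4a1-positive members. With a mitochondrial limit of 5% and 1000 UMIs Mcpt1 gave 0.852 and Vpreb3 0.986. Without members with myeloid RNA Spp1 gave 2.57, Cxcl2 1.12 and Rsad2 1.62. With no C1q, Cd3 and Siglech limits Ccl12 gave 0.687, Ltb 1.005, Cd69 1.13, Zbp1 1.03, Ifit3 1.24, Rsad2 1.16, Pcna 1.08 and Hmgb2 1.11, and the cell cycle list a median of 0.12. Beyond the settings' own construction, the cause was not tested. Values nearer to no difference turned more often, 33 of 264 for genes and 45 of 220 for list medians: with no such limits the medians were 0.08 for early activation, 0.03 for follicular genes, -0.03 for transcription factors and 0.18 for interferon response, and -0.15 for transcription factors over all members. Depth limits genes under 20 UMIs, and 1 library per group limits every ratio.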
